A study of Mus musculus with 18 samples.

Results

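The Heavy-over-Light shift is the change that loss of Prmt1 made in Heavy polysome RNA minus the change it made in Light polysome RNA, taken gene by gene. It was computed for every gene above 0 in at least 3 libraries, which was 17515 of the 19862 genes in the deposited table. The contrast rests on 12 of the 18 libraries, with 3 libraries in each of 4 groups. Heavy knockout and Heavy control libraries hold RNA carrying more than 3 ribosomes, and Light knockout and Light control libraries hold RNA carrying fewer than 3. The other 6 libraries, of Total cytoplasmic RNA, entered only the estimate of the spread, and their values stand beside the shift where printed. The fractions came from 10 to 50% sucrose gradients.

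The cells are a mouse osteosarcoma line (mOS), a bone tumour line derived from p53 and Rb conditional knockout mice, with tissue labelled as taken at postnatal day 299 on a mixed background. All 4 groups carry floxed Prmt1 alleles (Prmt1f/f) and a stably expressed CreER, the Cre recombinase that works when 4-hydroxytamoxifen (4OHT) is present. Knockout cells received 4OHT and control cells received ethanol (ETOH), and the labels call the control genotype wild type although its Prmt1 alleles are floxed. Control and knockout libraries therefore differ in 4OHT and Cre activity as well as in Prmt1, which cannot be told apart here. Whether the 3 libraries of a group came from different cultures is not stated, and the p-values describe the spread among these libraries alone, part or all of which may be technical.

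A message that is being read carries several ribosomes at once and sinks deep into a sucrose gradient, while a message with few ribosomes stays near the top. How many ribosomes fit depends on the length of the coding sequence, and how many are present depends on how often translation starts, how fast it runs and how it ends. Prmt1 places asymmetric dimethyl marks on arginines, many of them in RNA-binding and translation proteins. The Heavy minus Light difference, in log2(CPM + 1), where CPM is the count for every 1000000 reads of the library, says how a message was split between the 2 fractions relative to all other messages. It is not a rate of translation, and a positive interaction says that the message's share moved toward Heavy in knockout cells, a negative one that it moved toward Light.

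The 12 libraries held 32255673 to 57948663 reads. Heavy knockout 1 stood apart, with a root mean square deviation from its group mean of 0.350 (log2), against 0.116 to 0.251 for the other 11 libraries. Some results, but not all, are also given without Heavy knockout 1 and Light knockout 1 (0.239), which carries the same number. The summed level of osteoblast markers was 6801 to 13724 CPM in Heavy knockout and 4372 to 5835 CPM in Heavy control libraries, led by Col1a1, Sparc and Col1a2. Of the 20 osteoblast markers 17 were tested and 10 averaged 5 CPM or more, so the sum rests on few members and does not identify the cells. Macrophage markers summed to 12.2 to 16.0 CPM in Heavy knockout and 9.16 to 10.2 CPM in Heavy control libraries, and epithelial markers to 18.1 to 28.0 CPM in Heavy knockout and 9.62 to 10.5 CPM in Heavy control libraries. Endothelial markers summed to 133 to 159 CPM in Heavy knockout and 85.9 to 89.0 CPM in Heavy control libraries, nearly all of it Eng. No member of these 3 lists was called for the interaction (limma, 2 of 9, 1 of 9 and 0 of 8 had an unadjusted p under 0.05), and their part in the results was not tested. Over all 17515 genes tested 2720 had an unadjusted p under 0.05. In bulk RNA, fewer cells of a type and less RNA per cell cannot be told apart.

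Prmt1 itself had the lowest interaction of all 9440 genes whose mean over the 12 libraries reached 5 CPM. The gene (Entrez 15469, chromosome 7, 44976755 to 44986420 in mm10) had 64.4, 121 and 145 CPM in Heavy knockout libraries, against 412, 378 and 370.1 CPM in Heavy control libraries. In Light RNA it had 166, 229 and 235 CPM in knockout libraries, against 255, 243 and 218 CPM in control libraries. The groups did not overlap in Heavy, and in Light they did. Heavy minus Light was thus -1.35, -0.91 and -0.69 in the knockout pairs and 0.69, 0.63 and 0.76 in the control pairs. The interaction was -1.68 (SE 0.30, limma adjusted p = 0.0194), made of -1.88 in Heavy (SE 0.21) and -0.20 in Light (SE 0.21), while Total RNA changed by -0.72 (SE 0.21). With Heavy and Light of 1 number paired the adjusted p was 0.0403, with the 12 libraries alone it was 0.0817, and it was 0.0529 to 0.0680 without any 1 of the Heavy control libraries or without Light control 2 or 3. Reads from exons that remain after Cre acts count toward the gene, and which exons are floxed was not used here.

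Most called messages sat deep in the gradient of control cells and had a smaller Heavy-over-Light difference in knockout cells. limma called 503 of 17515 genes (2.87%) at a Benjamini-Hochberg adjusted p under 0.05, of which 62 (0.354%) had a positive and 441 (2.52%) a negative interaction. The genes called lower had a median Heavy minus Light of 0.67 in knockout cells and 1.40 in control cells, and 430 of the 441 were above 0 in control cells. The genes called higher had a median of -0.38 in knockout cells and -1.09 in control cells, and 1 of the 62 was above 0 in control cells. The control values enter both sides of these sentences, since they are also subtracted in the interaction, so the pattern is a description. Over those 9440 genes the medians were 0.01 in knockout and 0.15 in control cells.

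**Figure D1:**
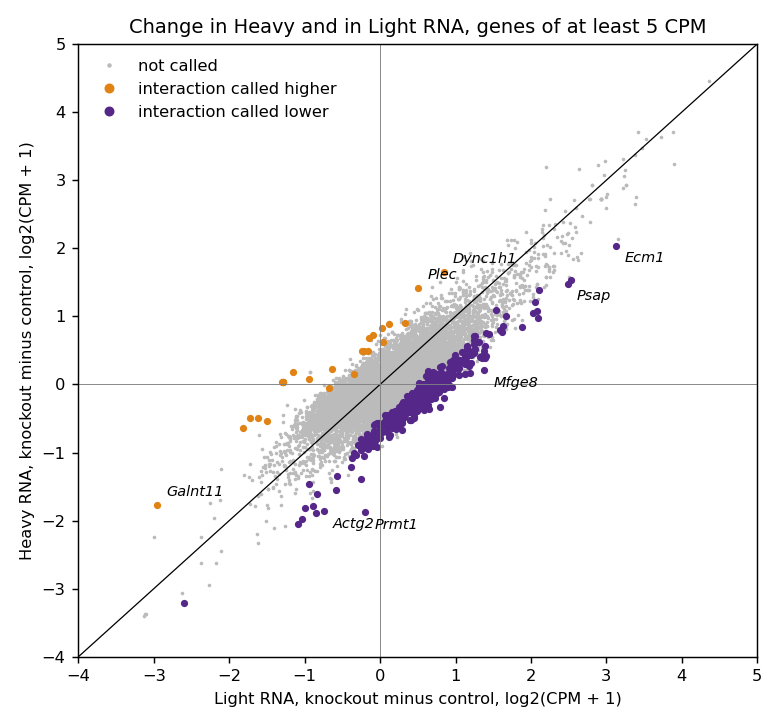
Change after loss of Prmt1 in Light RNA (x axis) and in Heavy RNA (y axis), both as knockout minus control in log2(CPM + 1), 1 point per gene averaging 5 CPM or more. The diagonal marks equal change in both fractions. The 423 genes called lower (purple) lie below it, mostly to the right of 0 in Light, and the 26 called higher (orange) lie above it.

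The number of calls was not stable. With the 12 libraries alone 8 genes were called (0.0457%), 7 higher and 1 lower, and with Heavy and Light paired by genotype and number 10 were called, 9 higher and 1 lower. In both fits most of the higher calls were gene models with nearly the same values, taken below as 1 signal. Of the genes named in the text, those that passed when paired were Prmt1, Galnt11, Mtus2 and 7 unnamed gene models, and the others had a paired adjusted p of 0.0605 or higher. Median-of-ratios scaling, which moved the median gene of at least 1 CPM by 0.05, left 26 genes higher and 23 lower (49 in all), and quantile normalization left 44 higher and 108 lower. The shares higher and lower thus depended on the scaling. Dropping Heavy knockout 1 raised the calls to 708 higher and 1303 lower, and dropping both knockout libraries numbered 1 gave 445 higher and 1015 lower. Calls fell to 39 higher and 258 lower without Heavy knockout 2, 18 and 149 without Heavy knockout 3, and 11 and 76 without Light knockout 1. They fell to 10 and 30, 6 and 23, and 7 and 29 without Heavy control 1, 2 or 3, and to 6 and 12 and 3 and 4 without Light control 2 or 3.

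**Figure D2:**
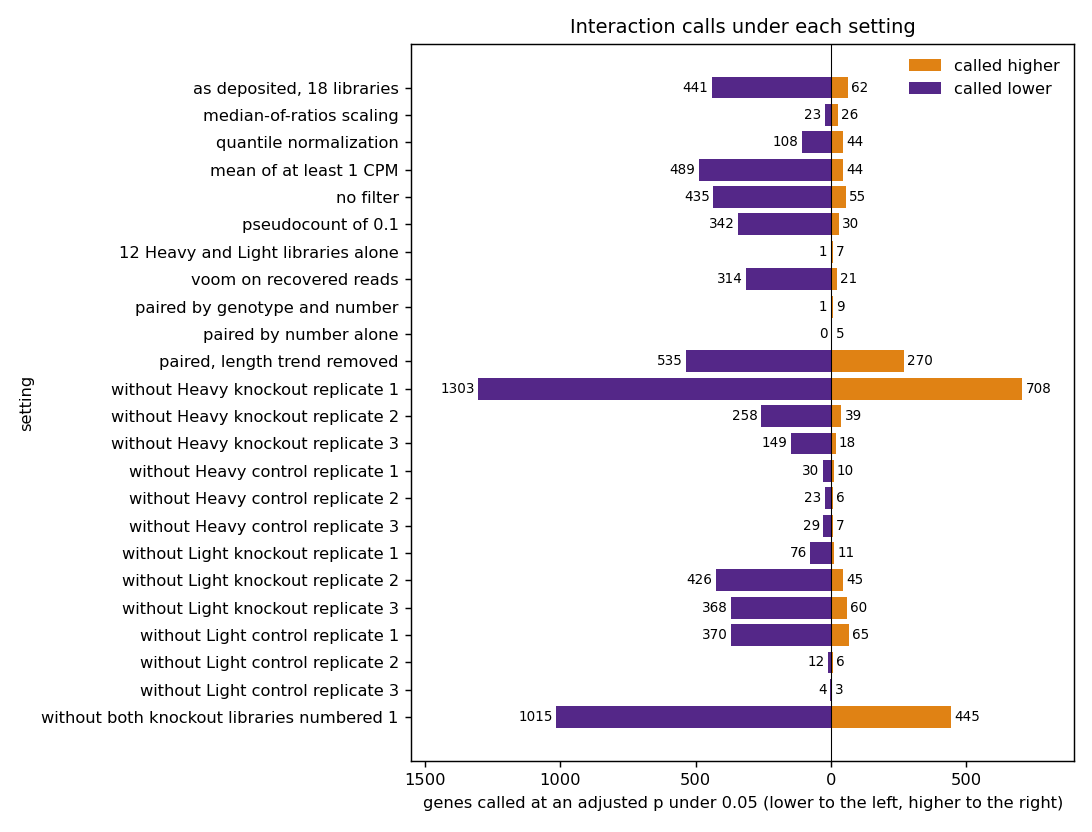
Genes called for the interaction at an adjusted p under 0.05 (x axis, number of genes, lower to the left in purple and higher to the right in orange) under each setting (y axis). The deposited values over 18 libraries gave 441 lower and 62 higher, and leaving out Heavy knockout 1 gave 1303 and 708, whereas leaving out Light control 3 gave 4 and 3.

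Genes called lower were most often higher in Light RNA without a call in Heavy. Within the fractions limma called 5061 of 17515 genes between knockout and control in Heavy (28.9%) and 6926 in Light (39.5%). Of the 441 genes with a lower interaction, 221 (50.1%) were called higher in Light and not called in Heavy, 109 (24.7%) were called lower in Heavy and not called in Light, and 39 (8.84%) were called lower in Heavy and higher in Light. A further 55 (12.5%) rose in both fractions and 17 (3.85%) fell in both. Their median change was -0.19 in Heavy, 0.51 in Light and -0.05 in Total RNA, against 0.01, 0.14 and -0.03 over all genes of at least 5 CPM. Of the 62 genes with a higher interaction, 27 (43.5%) were called lower in Light only, 16 (25.8%) fell in both fractions and 15 (24.2%) rose in Heavy only. Their median change was 0.02 in Heavy, -0.78 in Light and -0.43 in Total. Of the 62, 26 averaged 5 CPM or more, and the median level of the 62 in Total control RNA was 5.1 CPM. The pseudocount weighs on the values of the low ones, so they are not a like set to genes of at least 5 CPM.

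Heavy minus Light was less spread over genes in each knockout pair than in any control pair. The SD over genes of Heavy minus Light, at 5 CPM or more, was 0.945, 0.822 and 0.683 in knockout pairs 1 to 3 and 0.981, 1.125 and 1.107 in control pairs 1 to 3. The groups did not overlap, and the difference of -0.254 had a two-sided exact permutation p = 0.1, the smallest that 3 against 3 allows. Without knockout pair 1 the difference was -0.318. Among the same 9440 genes, 540 were above 0 in control and below 0 in knockout cells, and 149 went the other way.

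The median interaction varied with coding length: it was above 0 for short messages, below 0 for messages of middle length and above 0 again for the longest. The median interaction was 0.43 for 172 genes with at most 300 nt of coding sequence, 0.24 for the 1080 of 301 to 600 nt, -0.25 for the 1202 of 1201 to 1500 nt, and 0.15 for the 280 of over 5400 nt. For the shortest class the median Heavy minus Light was -2.19, -1.95 and -1.78 in knockout pairs, against -2.25, -2.47 and -2.49 in control pairs, with no overlap. For 1201 to 1500 nt it was 0.10, 0.24 and 0.18 in knockout pairs, against 0.39, 0.51 and 0.44 in control pairs, again with no overlap. The exact permutation p was 0.1 in each of these 2 classes, the smallest possible. The pairs of 301 to 600 nt overlapped, at -1.51, -1.20 and -0.82 in knockout and -1.34, -1.44 and -1.54 in control (exact permutation p = 0.3). Over 5400 nt the pairs overlapped, at 0.56, 0.17 and 0.19 in knockout and 0.03, 0.19 and 0.19 in control. Knockout pair 1 had a steeper course than knockout pairs 2 and 3, from -2.19 at 300 nt or less to 0.56 over 5400 nt.

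**Figure D3:**
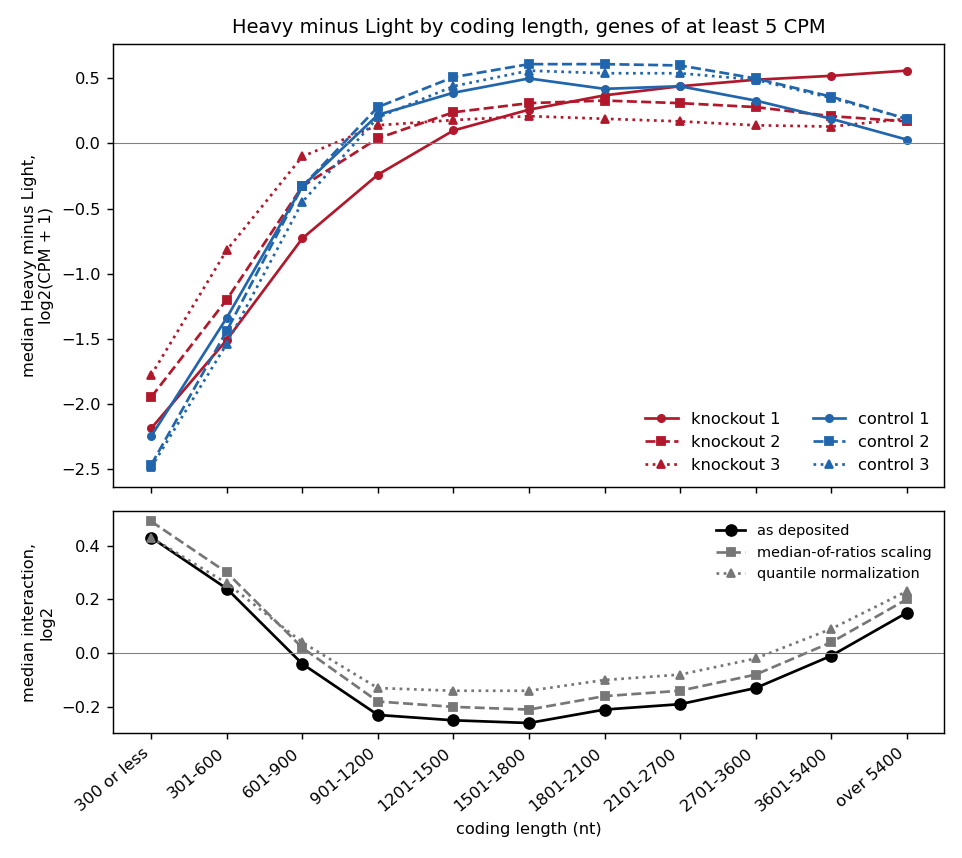
Upper panel, median Heavy minus Light in log2(CPM + 1) (y axis) by coding length (x axis, nt) for each knockout pair (red) and control pair (blue), genes of at least 5 CPM. Lower panel, median interaction (log2) in the same classes under 3 scalings. In the upper panel control pairs run from -2.25, -2.47 and -2.49 at 300 nt or less to a plateau of 0.50, 0.61 and 0.56 at 1501 to 1800 nt, where knockout pairs reach 0.26, 0.31 and 0.21.

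Genes called lower were concentrated in the middle classes. They made up 9.82% of genes of 1201 to 1500 nt and 8.18% of those of 901 to 1200 nt, against 0.581% at 300 nt or less and 0.0% over 3600 nt. Their median coding length was 1359 nt, with quartiles of 1107 and 1716 nt, against 1338 nt with quartiles of 831 and 2154 nt for all genes of at least 5 CPM. Their messages were abundant, at a median of 90.5 CPM in Total control RNA against 42.5 CPM for all genes of at least 5 CPM, and their annotated leaders had a median of 127 nt against 172 nt. The level of a gene can bear on whether it reaches a call, and neither difference was tested. With the trend on coding length removed in each library and Heavy and Light paired, 270 of 15637 genes (1.73%) were called higher and 535 (3.42%) lower, including 29 of the 62 and 259 of the 441. In the deposited values, with the length trend left in, the knockout pair differences at 5 CPM or more lay wholly above control for 929 genes (9.84%) and wholly below for 2449 (25.9%).

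The 14 lowest interactions at 5 CPM or more belonged to genes of mixed function. Mfge8, a secreted glycoprotein that bridges dying cells and phagocytes, had 704, 594 and 523 CPM in Heavy knockout and 541, 531 and 495 CPM in Heavy control libraries. In Light RNA it had 408, 340.5 and 382 CPM in knockout and 159, 142 and 131 CPM in control libraries. Heavy groups overlapped while every Light knockout library was far above every Light control library, and the interaction was -1.17 (SE 0.17, adjusted p = 0.0102). Ecm1, an extracellular matrix glycoprotein, rose in both fractions, to 799, 746 and 575 CPM in Heavy knockout against 177, 170.1 and 161 CPM in Heavy control libraries. In Light it reached 436, 524 and 533 CPM in knockout against 60.8, 54.3 and 53.0 CPM in control libraries. The rise was larger in Light (3.13) than in Heavy (2.04), which gave -1.09 (SE 0.20, adjusted p = 0.0194). Nucb1, a calcium-binding protein of the Golgi, also rose in both, with 0.97 in Heavy and 2.09 in Light, an interaction of -1.12 (SE 0.22). Aqp1, a water channel, had 1.08 in Heavy and 2.09 in Light, an interaction of -1.0 (SE 0.17), and the surface protein Igsf8 had -1.01 (SE 0.22).

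Cenpt, Lmf1 and Actg2 fell in Heavy RNA. Cenpt, a kinetochore protein that links centromeres to microtubule-binding complexes, had 28.7, 34.9 and 32.1 CPM in Heavy knockout and 82.1, 89.4 and 82.6 CPM in Heavy control libraries. Its Light values were 28.3, 29.1 and 37.0 CPM in knockout and 40.7, 38.4 and 33.5 CPM in control libraries. Heavy groups were far apart, Light groups overlapped, and the interaction was -1.13 (SE 0.17, adjusted p = 0.0116). Lmf1, which matures lipases in the endoplasmic reticulum, fell in both fractions (-1.89 in Heavy, -0.84 in Light) with an interaction of -1.04 (SE 0.21). Anxa5, a calcium-dependent phospholipid binder, rose in Light by 0.64 with -0.36 in Heavy (adjusted p = 0.163), and its interaction of -1.0 (SE 0.26, adjusted p = 0.0474) was called under 8 of 23 other settings.

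**Figure D4:**
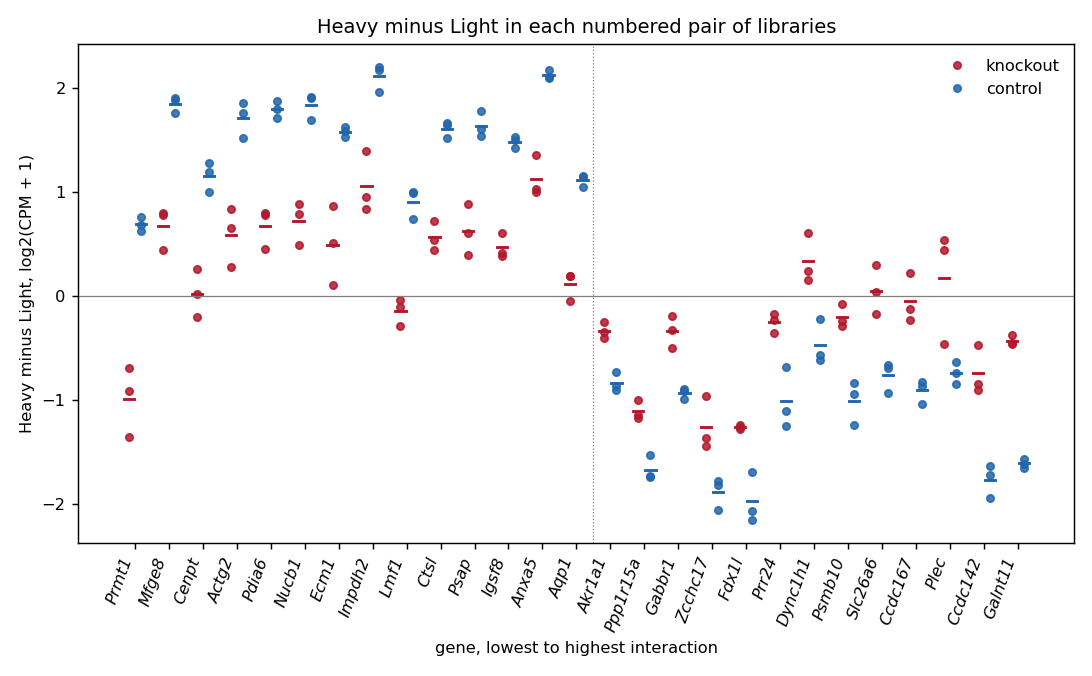
Heavy minus Light in log2(CPM + 1) (y axis) for Prmt1 and the genes with the lowest and highest interactions among those called at 5 CPM or more, unnamed gene models left out (x axis, from lowest to highest). Each point is 1 numbered pair of libraries, knockout in red and control in blue, and bars are means of 3. For Prmt1 the knockout pairs lie at -1.35, -0.91 and -0.69 and the control pairs at 0.69, 0.63 and 0.76, and the sets of the other genes are apart as well, which follows from choosing called genes.

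Among the 26 genes called higher at 5 CPM or more, those with gene names given here were mixed in function. The function of the unnamed gene models among the 26 was not considered. Galnt11, an enzyme that starts O-linked glycosylation, had 0.717, 0.739 and 0.899 CPM in Heavy knockout and 4.95, 5.21 and 5.13 CPM in Heavy control libraries. Light RNA held 1.34, 1.25 and 1.62 CPM in knockout and 17.2, 18.5 and 17 CPM in control libraries. It fell in both fractions, by 1.77 in Heavy and by 2.95 in Light on the log2 scale, which gave an interaction of 1.18 (SE 0.14, adjusted p = 0.00691). Its knockout levels lie near the pseudocount of 1 CPM, which weighs on these values: with a pseudocount of 0.1 the Galnt11 interaction was 1.0 (adjusted p = 0.0309). It averaged 5 CPM or more through its control libraries only. Ccdc142, a gene little described, had 3.96, 3.38 and 3.32 CPM in Heavy knockout and 3.01, 3.53 and 3.35 CPM in Heavy control libraries. In Light it fell to 5.85, 7.16 and 6.71 CPM in knockout against 14.4, 14 and 12.4 CPM in control libraries, an interaction of 1.03 (SE 0.15, adjusted p = 0.00852). The exons of Ccdc142 lie almost wholly (98.7%) within those of another gene model on the same strand, so its reads are uncertain, as are those of Fdx1l (0.70, SE 0.18), which is wholly within one.

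Very long messages were among them. Dync1h1, the heavy chain of cytoplasmic dynein, had 130.4, 123 and 112 CPM in Heavy knockout and 34.0, 38.5 and 42.5 CPM in Heavy control libraries. Its Light values were 84.9, 109.9 and 94.6 CPM in knockout and 52.4, 57.1 and 49.4 CPM in control libraries, and the interaction was 0.80 (SE 0.19, adjusted p = 0.0386). Plec, the giant cytoskeletal linker plectin, rose by 1.42 in Heavy and 0.50 in Light, an interaction of 0.92 (SE 0.23, adjusted p = 0.0424). Its knockout pairs were uneven, at 0.54, -0.46 and 0.45, against -0.84, -0.74 and -0.63 in control pairs. Their coding lengths were 13932 nt for Dync1h1 and 14073 nt for Plec. Without both knockout libraries numbered 1 the adjusted p was 0.0567 for Dync1h1 and 0.0689 for Plec.

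The shorter genes called higher included Psmb10, an inducible catalytic subunit of the immunoproteasome (0.81, SE 0.19), the anion exchanger Slc26a6 (0.82, SE 0.21), the GABA-B receptor subunit Gabbr1 (0.59, SE 0.14) and the ribosome-associated zinc finger protein Zcchc17 (0.63, SE 0.16). Without both knockout libraries numbered 1 the limma adjusted p was 0.069 for Slc26a6 and 0.0556 for Zcchc17, so neither was called there. Also higher were Prr24 (0.76, SE 0.18) and the small membrane protein Ccdc167 (0.87, SE 0.15), which shares 23.3% of its exons with Cmtr1 on the other strand. Akr1a1, an aldehyde reductase, was called higher at a mean above 100 CPM, as was Plec. It had 654, 647 and 685 CPM in Heavy knockout and 631, 589 and 566 CPM in Heavy control libraries, and in Light 827, 855 and 814 CPM in knockout and 1047, 1072 and 1059.8 CPM in control libraries. Neither fraction's groups overlapped, and the interaction was 0.50 (SE 0.11, adjusted p = 0.0296). Smim1, a small membrane protein of 234 coding nt, was the one call in either direction among the 172 genes of at least 5 CPM and 300 nt or less, with -0.75 (SE 0.15, adjusted p = 0.0212).

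Of the 62 genes called higher, 29 were unnamed gene models. In 0610010B08Rik, named here after its values were seen, Heavy RNA held 26.2, 27.6 and 29.5 CPM in knockout and 24.3, 27.8 and 28.9 CPM in control libraries, while Light held 47.7, 50.5 and 59.1 CPM in knockout and 111, 136 and 143 CPM in control libraries. Its interaction was 1.34 (SE 0.26, adjusted p = 0.0212, 0.0142 when paired). The models Gm14308, Gm4724, Gm14430 and Gm14434 had nearly the same values, so they are 1 signal whose gene of origin is uncertain. Gm14305 (1.23) and Gm14432 (1.17) also passed when paired, as did Mtus2 (1.07, SE 0.16), a microtubule-associated protein whose Heavy and Light levels were at most 0.248 CPM in knockout libraries. With the 12 libraries alone the other calls beside those 5 models and Galnt11 were Clstn3 (0.42, SE 0.07) and Fmo5 (-0.50, SE 0.07), both under 1 CPM in every library of the 12.

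Counts of called list members stand against 2.52% called lower and 0.354% called higher over all genes tested. Most lists, however, hold mainly genes of at least 5 CPM, and of 9440 such genes 423 were called lower and 26 higher. The share called lower also varied with coding length, from 0.0% to 9.82% over the length classes. A list's share above 2.52% thus does not by itself show enrichment, which was not tested. Since 441 of all 503 calls were lower, a lower direction is shared with genes at large. Counts of list members below or above 0 stand against 5645 below and 3795 above among the 9440 genes. With median-of-ratios scaling the lists kept 1 lower call each for matrix, PRMT, lysosome and cytoskeleton genes, and no other list had any. With the length trend removed the median of all genes was -0.03, and 270 genes were called higher and 535 lower. Without both knockout libraries numbered 1 these totals were 445 and 1015. A list's count under another setting stands against the totals of that setting, not against 62 and 441.

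Messages of the translation machinery differed by length. Cytosolic ribosomal protein messages are short and abundant, and they were poorly represented in Heavy RNA of both genotypes. Of 49 large-subunit members 3 were called lower and none higher, and of 33 small-subunit members 2 were called lower and none higher. The medians of 0.13 and 0.15 lay above that of all genes (-0.10 at 5 CPM or more), but with the length trend removed both were -0.13. Without both knockout libraries numbered 1 the medians were 0.38 and 0.41, with 17 and 13 members called higher and 3 and 2 lower. The large-subunit pairs had medians of -1.52, -0.87 and -0.65 in knockout cells and -1.14, -1.21 and -1.28 in control cells, so knockout pair 1 lay below control and the other 2 above it.

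The 5 ribosomal protein messages called lower were among those with longer coding sequences. Called or not, 21 of the 49 large-subunit and 9 of the 33 small-subunit members were below 0. Rpl3, a large-subunit protein near the peptidyl transferase centre, had 2494, 2594 and 1963 CPM in Heavy knockout and 2981, 2744 and 2848 CPM in Heavy control libraries. The Light libraries had 1212, 1034 and 1139 CPM in knockout and 846, 777 and 814 CPM in control libraries, with no overlap in either fraction and an interaction of -0.76 (SE 0.15, adjusted p = 0.0214). Rpl5, which binds 5S ribosomal RNA, had -0.73 (SE 0.17), Rpl4 -0.71 (SE 0.17), Rpsa -0.80 (SE 0.18) and Rps4x -0.68 (SE 0.16). Rpl5 shares 46.6% of its exons with Fam69a on the other strand. Rps6, the ribosomal protein phosphorylated by S6 kinase, had an interaction of -0.50 (SE 0.20, adjusted p = 0.216).

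The list of other messages with 5′ terminal oligopyrimidine tracts, which the mTOR pathway controls together with ribosomal proteins, had a median of the opposite sign. Of 24 members 6 were called lower and none higher, the median was -0.54, and 23 were below 0. Its pairs had medians of 0.71, 0.88 and 0.61 in knockout and 1.10, 1.39 and 1.29 in control cells, with no overlap. Eef1g, a subunit of the elongation factor that reloads eEF1A, had 2280.2, 2471 and 1996 CPM in Heavy knockout and 3316, 3000.5 and 3307 CPM in Heavy control libraries. Light levels were 1247, 1178 and 1394 CPM in knockout and 1025, 925 and 951 CPM in control libraries. It fell in Heavy and rose in Light, and the interaction was -0.91 (SE 0.15, adjusted p = 0.0140). The others were Impdh2, an enzyme of guanine nucleotide synthesis (-1.05, SE 0.18), the ribosome-bound scaffold Gnb2l1 (-0.85, SE 0.18), Eef1d (-0.76, SE 0.17) and the eIF3 subunits Eif3h (-0.75, SE 0.14) and Eif3f (-0.65, SE 0.13). The median coding length of this list was 1323 nt, against 468 and 453 nt for the large-subunit and small-subunit proteins, and its median was -0.37 with the length trend removed.

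Of 44 initiation factors 5 were called lower and none higher, led by the exon junction helicase Eif4a3 (-0.92, SE 0.16). The others were the eIF2B subunits Eif2b5 (-0.69, SE 0.14) and Eif2b2 (-0.63, SE 0.16), the eIF2 subunit Eif2s1 (-0.74, SE 0.18) and the cap-dependent helicase Eif4a1 (-0.58, SE 0.14). Of 16 elongation and termination factors 3 were lower, the mitochondrial elongation factor Tufm (-0.77, SE 0.17), the selenocysteine factor Eefsec (-0.71, SE 0.16) and Pelo, which rescues stalled ribosomes (-0.68, SE 0.15). Pelo shares 37.9% of its exons with another gene model. Of 39 aminoacyl-tRNA synthetase genes 5 were lower, Wars, Hars, Farsa and the scaffold proteins Aimp1 and Aimp2, between -0.85 and -0.73, and 36 were below 0 with a median of -0.28 (-0.09 with the length trend removed). The medians of initiation and of elongation factors were -0.17 and -0.30, and -0.13 and -0.12 with the length trend removed. Of 48 ribosome biogenesis genes 6 were lower and none higher, including Nob1, which trims the small-subunit RNA (-0.84, SE 0.17), and Noc4l (-0.82, SE 0.17), and the median of -0.26 was -0.12 with the length trend removed.

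**Figure D5:**
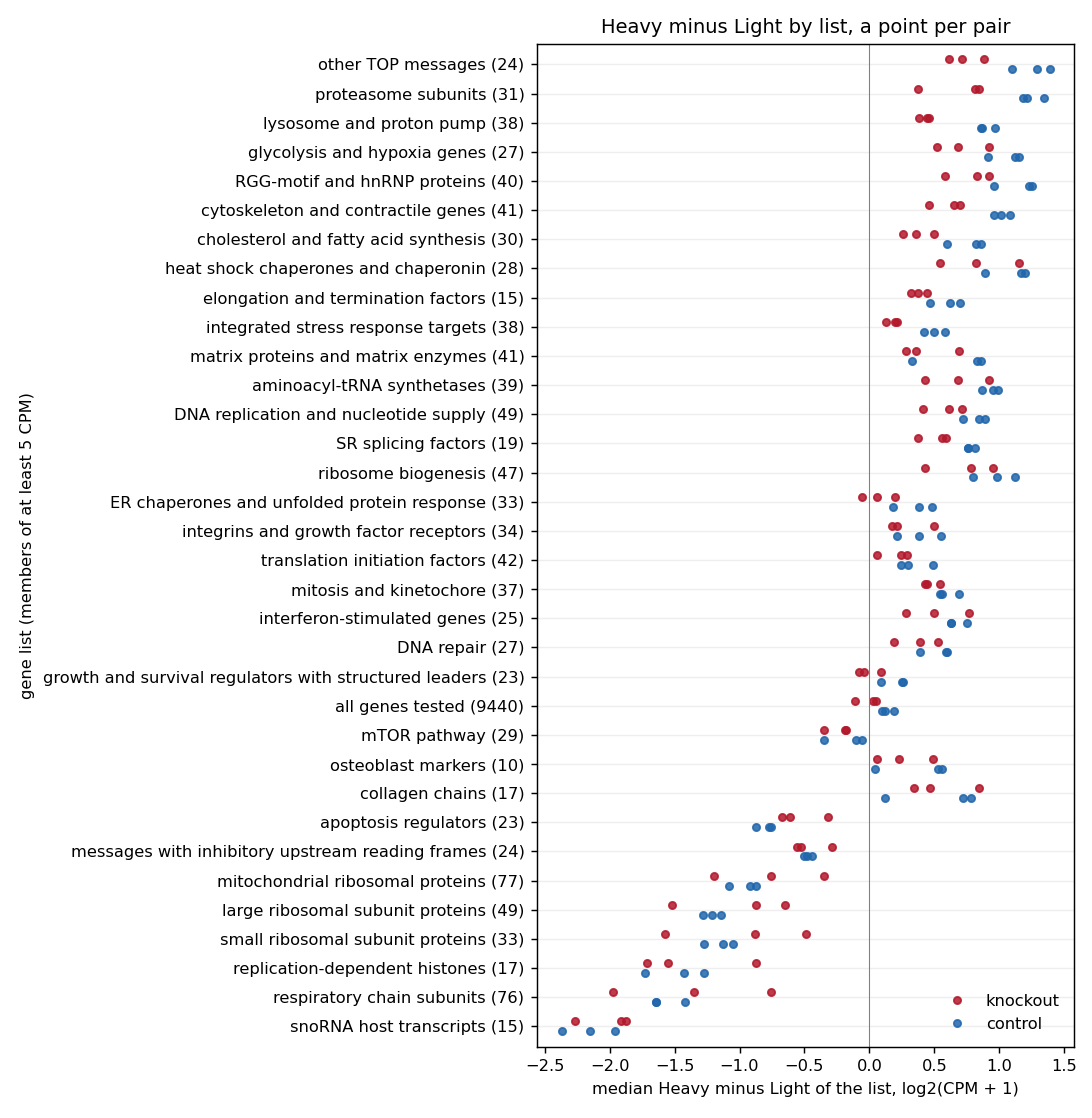
Median Heavy minus Light in log2(CPM + 1) (x axis) over the members of at least 5 CPM of each gene list (y axis, number of such members in brackets), 1 point per numbered pair, knockout in red and control in blue. Lists are ordered by their median interaction, lowest at the top. Other messages with oligopyrimidine tracts had knockout medians of 0.71, 0.88 and 0.61 and control medians of 1.10, 1.39 and 1.29, whereas ribosomal protein pairs overlapped.

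Constitutive proteasome subunits, which make up the barrel and cap of the main protein-degrading machine, had 9 of 31 members called lower and none higher, all 31 were below 0, and the median was -0.54. Without both knockout libraries numbered 1 there were 11 called lower, and 9 with the length trend removed, but 0 with median-of-ratios scaling. Lower calls over all genes were 1015, 535 and 23 under those settings, against 441 in the main fit. The inducible subunit Psmb10, which is no member of the list, was called higher, as given above. Psmd4, a ubiquitin receptor of the cap, had 475, 476 and 383 CPM in Heavy knockout and 574, 560.4 and 541 CPM in Heavy control libraries. Light RNA held 248, 194 and 217 CPM in knockout and 162, 130.4 and 134 CPM in control libraries, and the interaction was -0.96 (SE 0.17, adjusted p = 0.0187). The others called were the ATPases Psmc1 to Psmc5, between -0.87 and -0.62, and Psmd3, Psmd6 and Psmd13, between -0.90 and -0.65. Heat shock genes had 3 of 29 lower, the chaperonin subunits Cct7 (-0.82, SE 0.20) and Cct2 (-0.73, SE 0.18) and Hspa14 (-0.60, SE 0.14). Genes of the endoplasmic reticulum had 5 of 34 lower and none higher. They were the disulfide isomerases Pdia6 (-1.12, SE 0.24) and P4hb (-0.92, SE 0.20), the lectin chaperone Calr (-0.94, SE 0.23), the translocon channel Sec61a1 (-0.77, SE 0.16) and the co-chaperone Dnajb11 (-0.59, SE 0.13).

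Most called lysosomal genes rose in both fractions and by more in Light, Ctsk being the exception. Of 38 lysosome and proton pump genes 9 were called lower for the interaction and none higher, 34 were below 0, and the median change was 0.72 in Heavy, 1.25 in Light and -0.52 for the interaction. The knockout pairs had medians of 0.46, 0.44 and 0.38 and the control pairs 0.86, 0.87 and 0.97, with no overlap. Ctsl, a cysteine protease, had 1391, 1464 and 1241 CPM in Heavy knockout and 822, 737 and 730.3 CPM in Heavy control libraries. Its Light values were 1020, 881 and 855 CPM in knockout and 261, 232 and 254 CPM in control libraries, with no overlap in either fraction. The interaction was -1.04 (SE 0.14, adjusted p = 0.00852), called under 20 of 23 other settings. Psap, the precursor of sphingolipid activator proteins, had 2784, 1900.1 and 1624 CPM in Heavy knockout and 755, 730.3 and 724 CPM in Heavy control libraries. The Light libraries had 1503, 1245 and 1229.8 CPM in knockout and 259, 238 and 209.5 CPM in control libraries, an interaction of -1.01 (SE 0.22, adjusted p = 0.0260). The proteases Ctsd (-0.99, SE 0.23) and Ctsb (-0.84, SE 0.15), the proton pump subunits Atp6ap1 (-1.0, SE 0.20), Atp6v1b2 (-0.75, SE 0.17) and Atp6v0a1 (-0.54, SE 0.14), Scarb2 (-0.80, SE 0.19) and Ctsk (-0.83, SE 0.20) made up the rest, and Ctsk had -0.26 in Heavy (not called) and 0.57 in Light. Called lower were 18 members without both knockout libraries numbered 1 and 14 with the length trend removed (median -0.30), but 3 after quantile normalization and 1 with median-of-ratios scaling.

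Of 32 glycolysis and hypoxia genes 4 were called lower and none higher, the glycolytic enzymes Gapdh, Pgk1, Aldoa and Ldha. Gapdh had 3676, 3537 and 2821 CPM in Heavy knockout and 3365, 3142 and 3313 CPM in Heavy control libraries, which overlapped. Light levels were 1898, 1349.7 and 1451 CPM in knockout and 989, 754 and 814 CPM in control libraries, which did not, and the interaction was -0.85 (SE 0.20, adjusted p = 0.0362). The other 3 had -0.90 each. Of 76 respiratory chain subunits 7 were lower, while the median was 0.19 and 50 were above 0. Among the 7 were Atp5b, the catalytic subunit of ATP synthase (-0.89, SE 0.16), the complex I subunits Ndufa9, Ndufv1 and Ndufa10 (-0.78 to -0.64) and the complex III core proteins Uqcrc1 and Uqcrc2 (-0.82 and -0.71). With the length trend removed the list's median was -0.09, and without both knockout libraries numbered 1 it was 0.47, with 24 members called higher and 9 lower. Mitochondrial ribosomal proteins had 2 of 77 lower, against 2.52% of all genes tested and 423 of the 9440 genes of at least 5 CPM. They were Mrps5 (-0.75, SE 0.14) and Mrpl19 (-0.55, SE 0.12), and the list's median was 0.09 (-0.07 with the length trend removed). No cholesterol or fatty acid synthesis gene of 32 was called by limma (5 at an unadjusted p under 0.05), and 24 of 30 at 5 CPM or more were below 0.

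Contractile and matrix messages with a lower interaction included genes that fell and genes that rose in Heavy RNA. Acta2, smooth muscle actin, had 948, 1074 and 993 CPM in Heavy knockout and 3842, 3347 and 3448 CPM in Heavy control libraries. Light RNA held 623, 546 and 558 CPM in knockout and 1256, 1042 and 1153 CPM in control libraries. It fell in both fractions and by more in Heavy, and the interaction was -0.82 (SE 0.15, adjusted p = 0.0194). Actg2, another muscle actin, had -1.12 (SE 0.18), the tropomyosins Tpm2 and Tpm1 -0.88 (SE 0.18) and -0.84 (SE 0.20), and the tubulin Tubb6 -0.67 (SE 0.17). Actb, the main cytoskeletal actin, rose in Light by 0.67 and had -0.89 (SE 0.17). In all 6 of 41 members of the list were lower and none higher. Actins are close paralogs, and reads shared between them make these values uncertain. Of 50 matrix genes 1 was called, Bgn, a small proteoglycan, with 4152, 3653 and 3204 CPM in Heavy knockout and 2789, 2845 and 2723 CPM in Heavy control libraries. Its Light values were 2742, 2237 and 2614 CPM in knockout and 1015, 981 and 963 CPM in control libraries, an interaction of -0.96 (SE 0.15, adjusted p = 0.0134). No collagen gene of 29 was called by limma (2 at an unadjusted p under 0.05), and the median of 17 at 5 CPM or more was 0.01 (-0.03 after quantile normalization). Sparc, a collagen-binding glycoprotein of osteoblasts, had -1.0 (SE 0.33, adjusted p = 0.132) with 4073, 2417 and 2193 CPM in Heavy knockout and 1947, 2439 and 1988 CPM in Heavy control libraries.

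Of 49 DNA replication genes 4 were called, the sliding clamp Pcna (-0.85, SE 0.19), Chaf1b (-0.75, SE 0.16), Pole2 (-0.63, SE 0.14) and Prim2 (-0.60, SE 0.14). Of 45 mitosis genes 4 were called, Cdk1 (-0.79, SE 0.16), Aurkb (-0.73, SE 0.19), Bub3 (-0.63, SE 0.15) and Ccnb1 (-0.60, SE 0.15). Of 37 DNA repair genes 2 were called, among them Xrcc1 (-0.67, SE 0.16). RGG-motif and hnRNP genes, which encode proteins of the kind Prmt1 methylates, had 5 of 40 lower and 37 below 0, with a median of -0.41, and with the length trend removed 2 were called lower and the median was -0.25. The 5 were Serbp1 (-0.73, SE 0.17), Hnrnpl (-0.71, SE 0.16), Hnrnpc (-0.69, SE 0.16), Hnrnpf (-0.67, SE 0.16) and Fxr2 (-0.52, SE 0.12). Of 21 SR splicing factors Srsf7 (-0.60, SE 0.14) and Srsf4 (-0.55, SE 0.13) were called. In the PRMT family Prmt3, a methyltransferase of ribosomal protein S2, was called beside Prmt1 (-0.51, SE 0.13, adjusted p = 0.0485), and its value was -0.27 with an adjusted p of 0.276 once the length trend was removed.

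Of the stress response messages 1 was called, toward Heavy, while most stress response targets had an interaction below 0. Ppp1r15a, which directs dephosphorylation of eIF2 alpha and is itself read through upstream reading frames, had 62.1, 55.3 and 59.5 CPM in Heavy knockout and 30.4, 30.8 and 32.1 CPM in Heavy control libraries. The Light libraries had 125, 125 and 132 CPM in knockout and 103, 105 and 94.8 CPM in control libraries. It rose in both fractions and by more in Heavy, and the interaction was 0.57 (SE 0.14, adjusted p = 0.0424), called under 5 of 23 other settings with adjusted p-values of 0.0126 to 0.123. Atf4, the transcription factor of the integrated stress response, had 524, 349.8 and 401 CPM in Heavy knockout and 224, 224 and 200.3 CPM in Heavy control libraries. Its Light values of 1113, 891 and 1126 CPM in knockout and 812, 1025 and 750 CPM in control libraries overlapped. The interaction was 0.68 (SE 0.22, adjusted p = 0.112), so it was not called. It was called under 1 of 23 other settings (0.85, adjusted p = 0.0267, paired with the length trend removed), with adjusted p-values of 0.0267 to 0.306 over them. Ppp1r15a was the one call among 26 messages with inhibitory upstream reading frames, whose median was 0.07, and among 40 stress response targets, whose median was -0.29 and of which 29 of 38 at 5 CPM or more were below 0. The amino acid synthesis enzymes Psat1 (-0.82, SE 0.22, adjusted p = 0.0600) and Phgdh (-0.74, SE 0.23, adjusted p = 0.102) were among them. Without both knockout libraries numbered 1, 1 stress response target was called higher and 9 lower. With the length trend removed 2 were called higher and 4 lower. The messages with upstream reading frames had 1 higher and 0 lower, and 4 higher and 1 lower, under the same settings.

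Several lists had no call or a single one. No member was called among 53 interferon-stimulated genes, 28 growth and survival regulators with structured leaders, 31 apoptosis regulators, 17 osteoblast markers, 63 replication-dependent histones, 21 snoRNA host transcripts and 11 nuclear-retained or imprinted noncoding RNAs. At an unadjusted limma p under 0.05 there were 1 interferon-stimulated gene, 3 growth regulators, 5 apoptosis regulators, 3 osteoblast markers, 11 histones and none of the noncoding transcripts. Over all 17515 genes tested 2720 had such a p, so these counts alone do not set a list apart. Interferon-stimulated genes of at least 5 CPM had median changes of 1.59 in Heavy and 1.54 in Light. The antigen-presenting H2-D1 had an interaction of -0.67 (SE 0.18, adjusted p = 0.0531). Noncoding transcripts, which carry few ribosomes, had Heavy minus Light medians of -1.87, -1.91 and -2.27 in knockout and -1.96, -2.37 and -2.15 in control pairs for 15 snoRNA hosts, with overlap, and a median interaction of 0.26. Of 32 mTOR pathway genes Rps6ka1 was called (-0.64, SE 0.15), and of 47 integrins and growth factor receptors Erbb3 (0.21, SE 0.05), a low-level gene named after its values were seen. With the 12 libraries alone no member of any list was called.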

How the data were processed

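The authors deposited 1 table of log2(CPM + 1) values for 19862 genes and 18 libraries, and 100% of the values undo to whole reads (to within 0.1). Per the submitters' processing notes, STAR, edgeR and the mm10 build were used, with no versions. No source used here gives the read counter, annotation or strand setting, so overlapping genes and paralogs are uncertain. Of 138 genes checked, 45 share exon sequence with another gene, 32 of them by at least 5% of their exons. Among them are Srsf4 (67.9%), Mrpl19 (39.2%) and Ctsl (28.2%), and only some of these genes are marked in the text. The values were analysed as log2 values with limma 3.58.1 (trend and robust variances) in R 4.3.3, with 6 group means over 18 libraries, beside scipy 1.17.1, pandas 2.3.3, numpy 2.4.6 and matplotlib 3.10.9 in Python 3.11.15. The contrast was Heavy knockout minus Heavy control, minus Light knockout plus Light control, and a Benjamini-Hochberg adjusted p below 0.05 over 17515 genes made a call. The fit assumes 1 spread for all groups, whereas the root mean variance was 0.325 in Heavy knockout, 0.175 in Heavy control, 0.232 in Light knockout, 0.160 in Light control, 0.182 in Total knockout and 0.159 in Total control libraries. SEs are of the pooled fit. A pseudocount of 1 makes log2 changes of low genes smaller than their change in CPM and can move their interaction either way.

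Deviations from the group mean of Heavy and Light libraries with the same number correlated at 0.57, 0.64 and 0.26 in knockout and 0.46, 0.37 and 0.49 in control cells, above the limit of 0.1 taken to pair Heavy and Light within a genotype, although Heavy knockout 3 correlated more with Light knockout 2 (0.56) than with Light knockout 3. The paired fit used 12 libraries with genotype and number as a block. Replicates of a group differed by more than counting noise, with a chi-square of 12.2 to 241 per degree of freedom. Genes named were Prmt1, the 14 highest and 14 lowest called genes averaging 5 CPM or more over the 12 libraries, the 8 highest and 8 lowest of at least 100 CPM, the 3 members of each of the 39 lists with the lowest p, and the 2 highest and 2 lowest with at most 150 residues. Unnamed models and 52 genes sharing all values with another were left out of the rule, further list members were named after their values were seen where a list had 9 or fewer calls. Some genes under the rule are not reported here. The members and lists were chosen with earlier results of these data known. Coding lengths of 17400 genes came from the GENCODE annotation of the same build, since no protein table was at hand. The length trend was removed as the median of 50 bins in each library. Alternatives covered the scaling, filters, the pseudocount, voom on recovered reads, pairing, the length trend and left-out libraries. The fits were also run on simulated data with independent libraries and the same spread in all groups. These data differ in both respects, so that run does not bear on how many of the calls hold.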

Additional observations from a re-analysis of the deposited data

Results flagged for a closer look

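The interaction is itself the test of whether the effect of Prmt1 loss differed between Heavy and Light RNA, so every called gene counts here. In the fit over 18 libraries these were 503 genes, 62 higher and 441 lower. Of the 503, 10 were called with Heavy and Light paired by genotype and number, and 8 with the 12 libraries alone. The lowest values (log2) among genes of at least 5 CPM were Prmt1 at -1.68, Mfge8 at -1.17, Cenpt at -1.13, Actg2, Pdia6 and Nucb1 at -1.12, and Ecm1 at -1.09. They were followed by Impdh2 at -1.05, Lmf1 and Ctsl at -1.04, Psap and Igsf8 at -1.01, and Anxa5 and Aqp1 at -1.0. The highest values, unnamed gene models left out, were Galnt11 at 1.18, Ccdc142 at 1.03, Plec at 0.92, Ccdc167 at 0.87, Slc26a6 at 0.82, Psmb10 at 0.81 and Dync1h1 at 0.80. Below these stood Prr24 at 0.76, Fdx1l at 0.70, Zcchc17 at 0.63, Gabbr1 at 0.59, Ppp1r15a at 0.57 and Akr1a1 at 0.50. Groups of 3 libraries were not tested for single outlying values.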

How the results depend on the processing

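The direction of the Prmt1 interaction and of the difference in SD over genes held in every setting run, while the number of called genes did not. Called higher (62) and lower (441) were 26 and 23 with median-of-ratios scaling, 44 and 108 with quantile normalization, 30 and 342 with a pseudocount of 0.1, 7 and 1 with 12 libraries and 21 and 314 with voom. With a replicate block of genotype and number they were 9 and 1, of number alone 5 and 0 (the numbers do not pair the genotypes), and with the block of genotype and number and the length trend removed 270 and 535. Without both knockout libraries numbered 1 they were 445 and 1015. Leaving out 1 library gave 3 to 708 higher and 4 to 1303 lower. The Prmt1 interaction was -1.68 with the 12 libraries alone (adjusted p = 0.0817) and -1.68 with a block of number alone (0.0968), and leaving out 1 library gave -1.92 to -1.34. The difference in SD was -0.318 to -0.188 without 1 pair. Of genes with no call, these changed sign: Malat1 (-0.14 to 1.07 without 1 library, lowest without Light control 3), Sox9 to 0.01 with median-of-ratios scaling, 0.05 with quantile normalization, 0.20 with the paired length fit and -0.22 to 0.09 without 1 library, and Col2a1 to -0.07 without both knockout libraries numbered 1 and -0.32 to 0.34 without 1 library. The cause of these changes was not tested. With 3 libraries a group, an exact test cannot go below 0.1.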
